A study of Homo sapiens with 51 samples.

Results

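Integrins and laminins, the receptor and ligand sides of cell adhesion to the basement membrane, were followed in human pancreatic ductal adenocarcinoma (PDA) cell lines. The set was chosen by gene symbol, with earlier results of these data known. It held 31 genes, integrin subunits and laminin chains, of the 25421 gene rows of a count table. All 31 were found in the table, and 23 passed the filter on low counts in the fit over the transduced lines. Another 8 did not, and they are given by their counts.

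Integrins are receptors of the cell surface, each a pair of 1 alpha and 1 beta chain, and the alpha chain largely sets which matrix protein is bound. Integrin α6β4 holds epithelial cells to laminin-332 in the basement membrane at junctions called hemidesmosomes, where it is tied to keratin filaments rather than to actin. Integrins α5β1 and αvβ5 bind fibronectin and vitronectin through the RGD motif of these proteins, are tied to actin, and are usually prominent in migrating and mesenchymal cells. Laminins are trimers of 1 alpha, 1 beta and 1 gamma chain, and the chains used differ between epithelial and other basement membranes.

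RNA was measured by PLATE-seq, which barcodes the 3′ ends of transcripts well by well, in 51 libraries that formed 17 groups of 3. KP4, PANC1 and PK45H, called Morphogenic lines in the labels, were transduced with lentivirus (multiplicity of infection 2, polybrene 8 µg/ml). The virus carried the open reading frame of OVOL2, a zinc-finger transcription factor of epithelial cells, or, in the control groups, that of the fluorescent protein mCherry. A parallel set of both groups received in addition a virus for M2rtTA (FUW-M2rtTA), a transactivator of tetracycline-inducible promoters. From the day after transduction, puromycin (2.5 µg/ml) and doxycycline (0.6 µg/ml) were in the medium, by the labels in the sets with and without M2rtTA alike, so the mCherry controls carried the selection and the inducer too. Untreated libraries existed for these 3 lines and for HPAFII and PATU8988S, and neither of those 2 lines was transduced. Cells were cultured for 6 days in total, and 100 ng of total RNA entered each library. Each line is an established cell line, and each stands for a single tumour. The labels do not say whether the 3 libraries of a group came from separate cultures, so p-values measure the spread between these libraries, which may be technical.

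Library totals ran from 1165399 counts, in HPAFII untreated replicate 2, to 7490556, and the 31 members together took 1326 to 6703 counts of a library. OVOL2 itself averaged 0.887 to 1.47 CPM (counts per 1000000 of the library) in the OVOL2 groups without M2rtTA and 1.13 to 1.25 in their mCherry groups. With M2rtTA it averaged 2.15 to 4.99 against 0.539 to 1.11 CPM. The sources used here do not say whether the viral transcript carries the 3′ end that PLATE-seq counts, so these levels are no full check of the labels, and groups are named as labelled. Markers of ductal epithelium (KRT7, KRT8, KRT18, KRT19, EPCAM, CDH1 and ESRP1) had counts in all libraries. In the mean over the 3 lines, 4 of these 7 markers were higher in OVOL2 than in mCherry libraries without M2rtTA, and all 7 with it. Of all genes, 9.32% and 15.7% were higher. The lines differed: within PANC1, 3 of the 7 were higher and 1 lower in each arm, while 0 were lower in KP4 or PK45H. With M2rtTA the 7 markers summed to 1997 to 2292 CPM in PANC1 OVOL2 libraries and 2233 to 2549 in their mCherry controls. In KP4 and PK45H these sums lay above those of the controls. Of 5 mesenchymal markers (VIM, ZEB1, CDH2, FN1 and SPARC), 3 without and 4 with M2rtTA were lower in the mean over lines, against 8.81% and 17.3% of all genes. In bulk RNA, fewer cells of a type and less RNA per cell cannot be told apart. Levels are in CPM after TMM scaling of the library sizes, per library in the order of replicates 1, 2 and 3, or as a mean ± SD (n = 3). Each change is on the log2 scale, with its standard error (SE), and a gene is said to rise, fall or differ only where the edgeR p, adjusted over all genes tested, was under 0.05.

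The untreated lines were compared first, HPAFII and PATU8988S against KP4, PANC1 and PK45H, which asks how far the adhesion genes differ between the lines before any virus. All 4 hemidesmosome and laminin-332 genes passed as higher in HPAFII and PATU8988S. LAMA3, the alpha chain of laminin-332, was 31.3-fold higher there, and ITGB4, the beta chain of α6β4, was 9.81-fold higher. ITGA5, the alpha chain of the fibronectin receptor, was 2.70-fold lower. Of 24 members tested, 13 passed the threshold, 10 higher and 3 lower, that is 54.2% against 34.8% of all 13785 genes tested (17.4% higher and 17.4% lower). The median log2 fold change was 0.37 over the members and −0.00 over all genes.

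LAMA3 (chr18:23689453-23955066; all gene positions are RefSeq's, GRCh38.p14) was at 522, 534 and 526 CPM in PATU8988S and at 149, 54.8 and 121 in HPAFII. It was at 10.1, 8.96 and 9.41 in KP4, 4.31, 5.02 and 4.03 in PANC1 and 8.42, 10.6 and 13.2 in PK45H (log2 fold change 4.97, SE 0.19, edgeR adjusted p = 1.62e-10). No library of the 2 sets overlapped, and the lowest HPAFII library stood above the highest of the other 3 lines. ITGB4 (chr17:75721459-75757818) was at 186, 59.5 and 186 CPM in HPAFII and 118, 136 and 135 in PATU8988S, against 6.22, 4.65 and 2.57 in KP4, 12.9, 4.80 and 9.21 in PANC1 and 58.0, 72.7 and 73.3 in PK45H (log2 fold change 3.29, SE 0.26, edgeR adjusted p = 1.67e-07). PK45H was the high line of the 3, its libraries reaching the level of HPAFII replicate 2 and lying well above KP4 and PANC1. LAMB3 (chr1:209614870-209652425), the beta chain of laminin-332, was likewise highest in PK45H among the 3 lines, at 21.8, 17.7 and 19.959 CPM in PK45H, 3.84, 2.41 and 5.77 in KP4 and 2.72, 2.97 and 2.88 in PANC1. It was at 86.2, 28.96 and 61.0 CPM in HPAFII and 13.4, 19.0 and 17.1 in PATU8988S (log2 fold change 2.38, SE 0.22, edgeR adjusted p = 9.16e-07). PK45H and PATU8988S overlapped in LAMB3, and KP4 and PANC1 lay below both.

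ITGA6 (chr2:172427336-172506459), the alpha chain that pairs with ITGB4 and also with ITGB1, was at 59.9, 18.8 and 62.1 CPM in HPAFII, 42.6, 53.5 and 59.5 in PATU8988S, 12.4, 18.4 and 14.8 in KP4, 24.0, 26.5 and 21.6 in PANC1 and 39.0, 34.1 and 39.1 in PK45H (log2 fold change 1.07, SE 0.20, edgeR adjusted p = 0.000604). HPAFII replicate 2 lay within the range of the 3 other lines, and the rest of the HPAFII and PATU8988S libraries lay above it. That library stood apart in most of these genes. Of the 10 members that were higher in HPAFII and PATU8988S, 9 were lower in HPAFII replicate 2 than in the mean of its mates, by a ratio of 0.469 in the median (range 0.278 to 1.69). It also had the smallest total, and the part of that in these values was not tested. Without it, the differences of ITGA6, ITGB4, LAMA3 and LAMB3 all passed, and that of LAMB2 did not.

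LAMA5 (chr20:62309065-62367312), the alpha chain of laminin-511 and widespread in epithelia, was at 81.0, 46.2 and 69.1 CPM in HPAFII and 63.4, 94.5 and 86.5 in PATU8988S. It was at 75.5, 68.3 and 55.8 in PANC1, 25.6, 22.6 and 17.5 in KP4 and 31.9, 17.9 and 29.5 in PK45H (log2 fold change 1.13, SE 0.16, edgeR adjusted p = 7.15e-05). PANC1 overlapped with HPAFII and PATU8988S, and KP4 and PK45H did not. Smaller differences passed for ITGA3 (0.35, edgeR adjusted p = 0.018), ITGA2 (0.62, 0.0174), LAMA4 (0.83, 0.0200) and LAMB2 (0.59, 0.0367), each with overlapping libraries.

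ITGA3, the alpha chain of the laminin receptor α3β1, was at 137, 103 and 132 CPM in HPAFII, 167, 152 and 152 in PATU8988S, 78.9, 57.7 and 80.4 in KP4, 169.5, 157 and 158 in PANC1 and 112, 122 and 115 in PK45H. PANC1 was as high as PATU8988S, and KP4 was lowest. ITGA2, the alpha chain of the collagen receptor α2β1, was at 54.1, 31.3 and 63.7 CPM in HPAFII, 15.5, 23.3 and 21.5 in PATU8988S, 7.87, 16.4 and 8.98 in KP4, 31.7, 39.958 and 27.1 in PANC1 and 27.6, 22.6 and 24.4 in PK45H. PATU8988S lay below PANC1. LAMA4, an alpha chain of vessel and muscle laminins, was at 18.5, 17.2 and 17.0 CPM in HPAFII, above every other untreated library, and at 8.88, 5.95 and 7.18 in PATU8988S, inside the range of the other 3 lines (5.49, 8.96 and 1.92 in KP4, 6.35, 12.3 and 8.35 in PANC1 and 4.62, 6.74 and 4.63 in PK45H). LAMB2, a beta chain of laminins outside laminin-332, was at 11.7, 16.4 and 7.83 CPM in HPAFII, 12.9, 11.7 and 8.68 in PATU8988S, 5.49, 4.82 and 5.35 in KP4, 6.57, 7.76 and 10.9 in PANC1 and 7.10, 9.11 and 13.5 in PK45H. The LAMB2 call was lost in 11 of 15 refits that left out 1 library, that of ITGA3 without HPAFII replicate 1 or PATU8988S replicate 1, that of ITGA2 without HPAFII replicate 3 or PATU8988S replicate 2, and that of LAMA4 without PATU8988S replicate 1. ITGB6, the beta chain of the epithelial αvβ6 that activates TGF-β, was low throughout: its counts were 19, 2 and 19 in HPAFII and 11, 13 and 9 in PATU8988S, and at most 5 in an untreated library of KP4, PANC1 or PK45H (edgeR adjusted p = 0.000165).

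In the other direction, ITGA5 (chr12:54395261-54419266) was at 10.7, 8.61 and 15.1 CPM in HPAFII and 2.79, 7.55 and 4.19 in PATU8988S. It was at 21.4, 21.4 and 20.5 in KP4, 34.2, 20.8 and 26.5 in PANC1 and 18.7, 13.995 and 14.5 in PK45H (log2 fold change −1.43, SE 0.20, edgeR adjusted p = 6.14e-05). HPAFII replicate 3 was above 2 of the 3 PK45H libraries, and all other libraries of the 2 sets were apart. ITGB5 (chr3:124761948-124901418), the beta chain of the vitronectin receptor αvβ5, differed by −0.43 on the log2 scale (edgeR adjusted p = 0.0100). It was at 30.8, 27.4 and 27.5 CPM in HPAFII, 73.3, 62.0 and 73.0 in PATU8988S, 38.1, 36.2 and 29.5 in KP4, 103, 77.2 and 111 in PANC1 and 59.1, 72.7 and 65.4 in PK45H. HPAFII had the lowest mean, and PATU8988S lay among the other 3 lines. LAMC3, a gamma chain of low level here, differed by −1.20 (edgeR adjusted p = 0.0146), and was at 1.30, 4.70 and 0.54 CPM in HPAFII, 2.28, 1.14 and 2.69 in PATU8988S, 6.04, 5.68 and 7.06 in KP4, 7.02, 7.76 and 10.9 in PANC1 and 1.49, 1.35 and 1.45 in PK45H. PK45H was as low as PATU8988S, and KP4 and PANC1 lay above all other libraries. ITGAV and LAMC1 showed changes of −0.03 (SE 0.20) and −0.02 (SE 0.14), neither past the threshold.

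**Figure D1:**
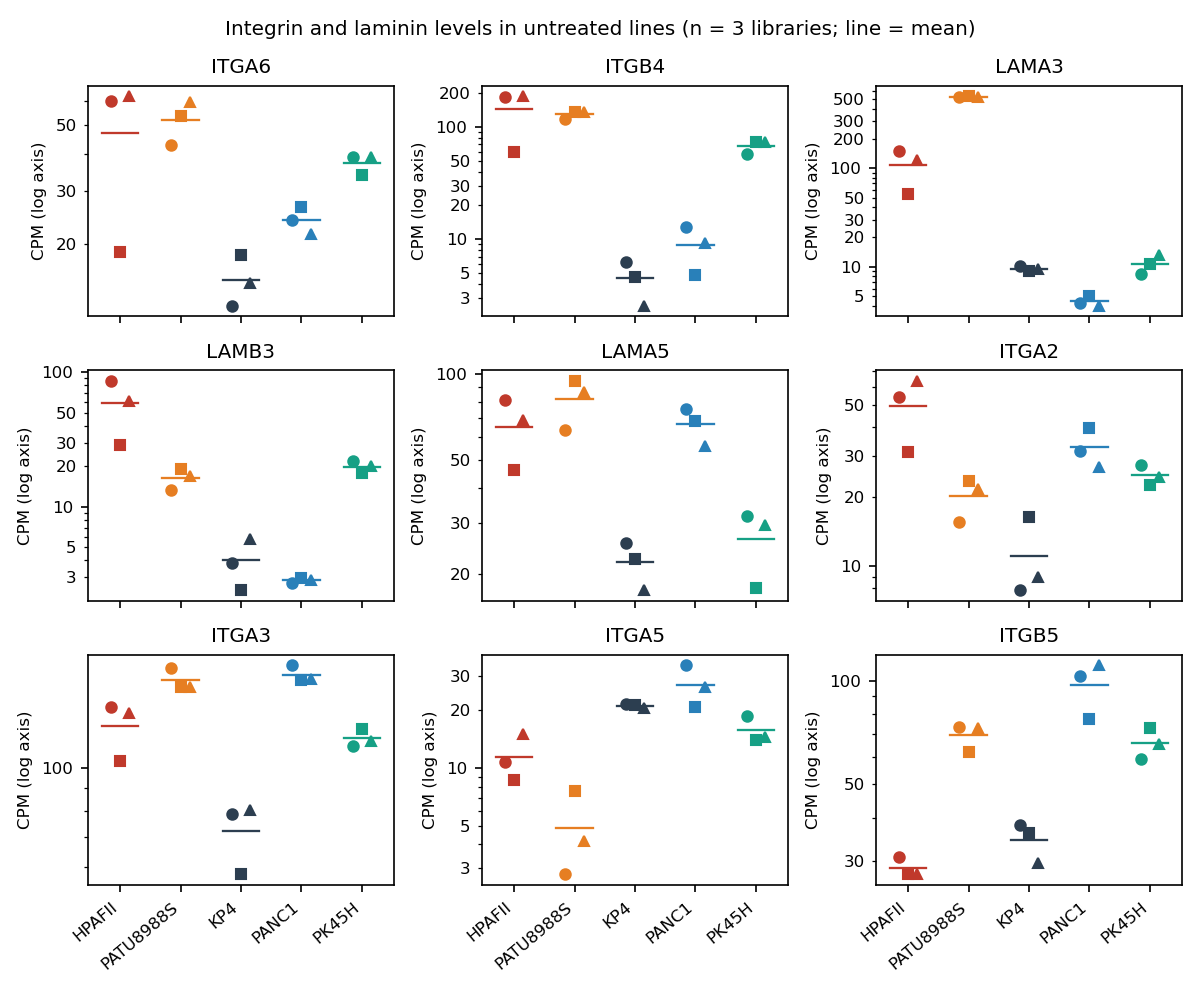
CPM (log axis) of 9 members in the untreated libraries of 5 lines; each point is a library (circle, square and triangle for replicates 1, 2 and 3) and each bar the mean of 3. LAMA3 separates HPAFII and PATU8988S from all other libraries, PK45H holds an intermediate level of ITGB4, and the square of HPAFII lies below its mates in ITGA6, ITGB4, LAMA3 and LAMB3.

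The OVOL2 libraries were compared with the mCherry libraries next, which asks whether the adhesion genes move when OVOL2 is delivered. ITGB4 rose and ITGA5 fell, and these were the 2 members that changed in all 3 lines with M2rtTA. In both arms LAMB3 passed as higher in PK45H, ITGA2 as higher in KP4 and ITGA3 as lower in PANC1. Over the mean of the 3 lines, 9 of 23 members passed without M2rtTA, 3 higher and 6 lower (39.1% against 18.1% of 14943 genes, of which 9.32% higher and 8.81% lower), and 9 of 23 with it, again 3 higher and 6 lower (39.1% against 32.9% of all genes, 15.7% higher and 17.3% lower). Without M2rtTA the members' share was above that of all genes, and with M2rtTA it was near it. The members' median change was −0.21 without M2rtTA, against 0.00 over all genes, and −0.07 with it, against 0.03. In total 12 members passed in either arm; 6 passed in both (ITGA3, ITGA5, ITGB4, ITGB5, LAMB1 and LAMB3), each in the same direction. The 2 arms share no library. Their effects were taken from the same fit over the 3 lines, with a shared estimate of the spread, so they are not fully separate tests. The shares of all genes that passed in both arms or in either are not given here. The overlap of 6 members therefore has no background to be judged against.

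Within single lines the counts were lower. Without M2rtTA, 2 of 23 members passed in KP4 (background 6.82%), 2 of 22 in PANC1 (5.08%) and 3 of 21 in PK45H (8.39%). With M2rtTA, 8 of 23 members passed in KP4, 4 in each direction (background 22.4%, 9.91% higher and 12.5% lower). In PANC1 with M2rtTA 7 of 22 passed, 1 higher and 6 lower (background 13.9%, 5.76% higher and 8.18% lower). In PK45H with M2rtTA 4 of 21 passed, 3 higher and 1 lower (background 15.9%, 7.45% higher and 8.40% lower). When 1 library was left out, the counts with M2rtTA ran from 5 to 8 in KP4 and from 4 to 6 in PANC1. The values within lines come from the same libraries as the means over lines and are no separate evidence.

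**Figure D2:**
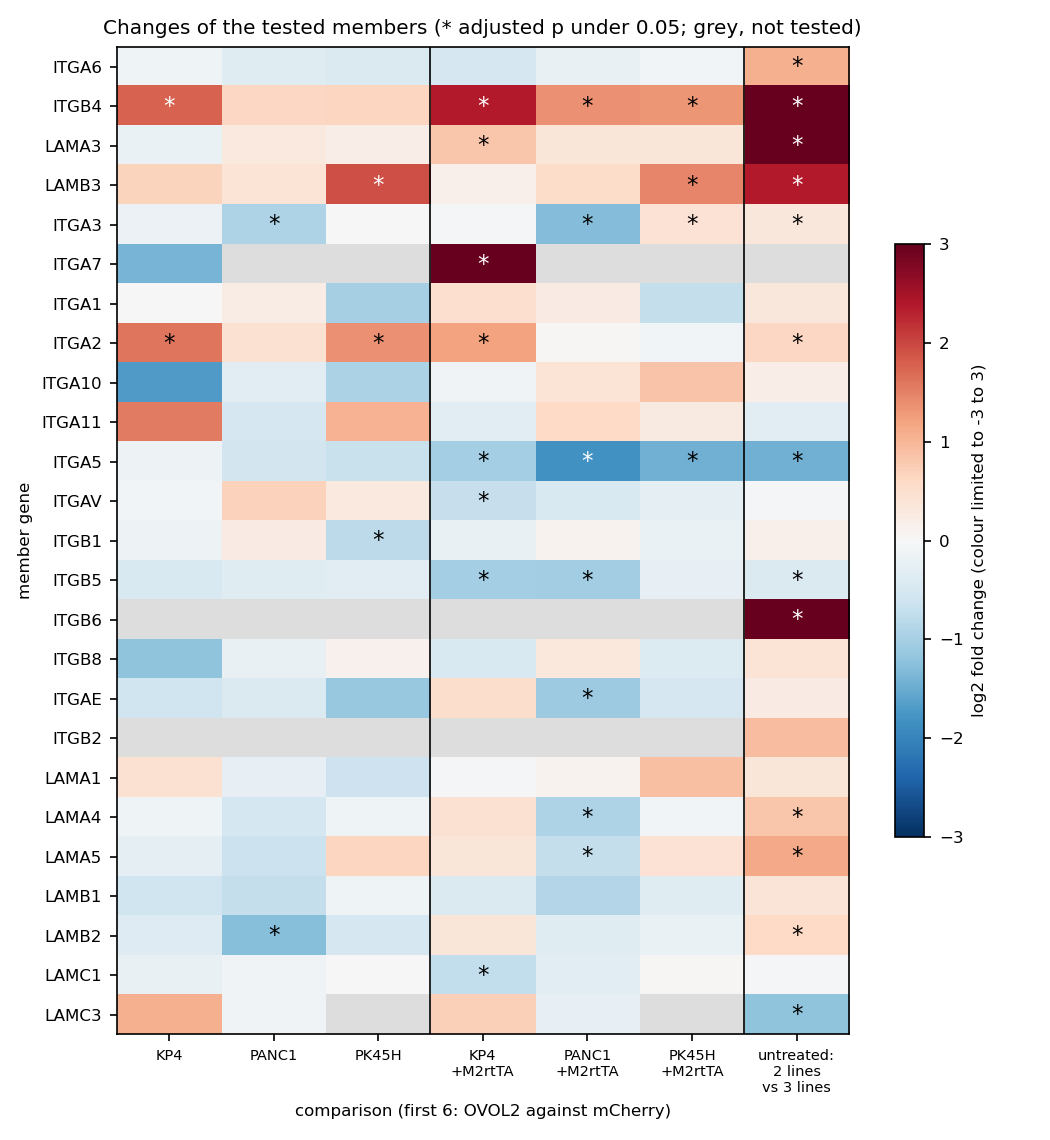
Log2 fold changes of the 25 members tested in at least 1 comparison (rows, by role) in 7 comparisons (columns); red is higher and blue lower in OVOL2 than in mCherry, or in HPAFII and PATU8988S than in KP4, PANC1 and PK45H, and a star marks an adjusted p under 0.05. With M2rtTA, ITGB4 is red and ITGA5 blue with a star in all 3 lines. Grey was not tested, the colour scale ends at 3 in either direction, and the values of ITGA7 and ITGB6 rest on low counts.

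ITGB4 was the member with the largest rise in the mean over lines with M2rtTA (1.69, a 3.22-fold higher level). In KP4 it was at 4.84, 1.65 and 6.22 CPM in mCherry and 12.4, 16.6 and 13.956 in OVOL2 libraries, and at 4.94, 6.14 and 3.69 against 24.2, 26.0 and 26.2 in the matching groups with M2rtTA. Of each pair the mCherry values come first, here and below. The groups did not overlap in either arm, and ITGB4 rose without M2rtTA (log2 fold change 1.76, SE 0.35, edgeR adjusted p = 0.00903) and with it (log2 fold change 2.38, SE 0.35, edgeR adjusted p = 0.000307). In PANC1 it was at 7.79, 6.79 and 8.11 CPM with mCherry and at 17.8, 21.7 and 17.4 with OVOL2 when M2rtTA was present, with no overlap (log2 fold change 1.36, SE 0.32, edgeR adjusted p = 0.0107). Without M2rtTA the PANC1 groups overlapped, at 4.28, 8.50 and 7.36 against 6.99, 11.1 and 12.9 CPM, and the change of 0.62 did not pass (edgeR adjusted p = 0.327).

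In PK45H, which started from a higher level, ITGB4 was at 47.3, 53.9 and 36.8 CPM with mCherry and 143, 126 and 74.0 with OVOL2 in the presence of M2rtTA (log2 fold change 1.32, SE 0.21, edgeR adjusted p = 0.000997). Without it the levels were 67.6, 67.2 and 67.9 against 118, 99.9 and 105 CPM; the groups were apart, but the change of 0.64 (SE 0.21) did not pass (edgeR adjusted p = 0.0808). The OVOL2 libraries of PK45H lay within the range of HPAFII and PATU8988S, as did its mCherry libraries without M2rtTA and 2 of its 3 untreated libraries. Those of KP4 and PANC1 stayed below the lowest PK45H library of any group. Over the lines ITGB4 rose by 1.03 (SE 0.18, edgeR adjusted p = 6.94e-05) without and by 1.69 (SE 0.18, edgeR adjusted p = 2.56e-09) with M2rtTA. A difference between the lines did not pass in either arm (edgeR adjusted p = 0.256 and 0.203), nor did a difference between the arms (0.66, SE 0.25, edgeR adjusted p = 0.109).

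LAMB3 rose in PK45H, from 19.7, 22.9 and 20.5 CPM with mCherry to 68.8, 109.6 and 67.5 with OVOL2 (log2 fold change 1.93, SE 0.20, edgeR adjusted p = 3.36e-05). With M2rtTA it went from 20.3, 20.9 and 17.4 to 59.1, 57.8 and 44.8 CPM (log2 fold change 1.47, SE 0.19, edgeR adjusted p = 0.000197). The OVOL2 libraries lay well above all mCherry libraries in both arms, and in the range of untreated HPAFII or above it. In KP4 LAMB3 was at 4.36, 3.70 and 7.14 against 7.95, 7.81 and 8.00 CPM without M2rtTA, and in PANC1 at 3.38, 2.52 and 2.39 against 4.30, 4.39 and 2.22; the KP4 groups were apart and the PANC1 groups overlapped, and neither change passed (edgeR adjusted p = 0.27 and 0.66). With M2rtTA the KP4 levels were 4.27, 3.32 and 4.67 against 6.04, 3.55 and 4.11 CPM, and the PANC1 levels 5.57, 4.66 and 3.12 against 8.06, 7.90 and 3.06, again not passing (edgeR adjusted p = 0.785 and 0.365). The rise over lines was 1.02 (SE 0.17) without and 0.73 (SE 0.17) with M2rtTA (edgeR adjusted p = 4.21e-05 and 0.00094). A difference in response between lines passed without M2rtTA (edgeR adjusted p = 0.036) and not with it (edgeR adjusted p = 0.0747); 2 of 23 members passed this test without M2rtTA, LAMB3 and ITGA3, against 2.74% of all genes. That call of LAMB3 was lost in 11 of 18 refits that left out 1 library, with adjusted p up to 0.165.

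LAMA3, whose untreated levels differed most among the members, passed within 1 line. In KP4 with M2rtTA it was at 7.18, 5.11 and 6.9998 CPM with mCherry and 11.4, 11.3 and 11.5 with OVOL2 (log2 fold change 0.82, SE 0.24, edgeR adjusted p = 0.0223). These groups did not overlap, but the KP4 libraries with OVOL2 lay inside the range of those with mCherry alone, 7.42, 12.3 and 10.6 CPM. The PANC1 groups with M2rtTA were at 3.56, 6.99 and 2.70 against 6.84, 5.03 and 4.94, and those of PK45H at 10.6, 9.64 and 13.8 against 12.6, 16.6 and 14.5; neither passed. Over lines the change was 0.51 (SE 0.16) with M2rtTA (edgeR adjusted p = 0.0128) and 0.11 (SE 0.16) without it (edgeR adjusted p = 0.699). The highest OVOL2 library of any line, at 16.6 CPM, remained below the lowest HPAFII library, at 54.8. The KP4 call was lost when OVOL2 + M2rtTA replicate 1 or 3, or mCherry + M2rtTA replicate 2, was left out (adjusted p up to 0.0893).

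ITGA6, the partner chain of ITGB4, did not pass in any OVOL2 comparison. Its change over lines was −0.29 (SE 0.13) without and −0.27 (SE 0.13) with M2rtTA, neither past the threshold (edgeR adjusted p = 0.112 and 0.104). In KP4 with M2rtTA it was at 13.5, 18.4 and 19.6 CPM with mCherry and 10.6, 14.9 and 10.5 with OVOL2, in PANC1 at 17.6, 18.2 and 23.5 against 20.5, 15.5 and 13.6, and in PK45H at 30.0, 35.2 and 45.5 against 46.0, 33.4 and 25.1. The groups overlapped in each line.

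**Figure D3:**
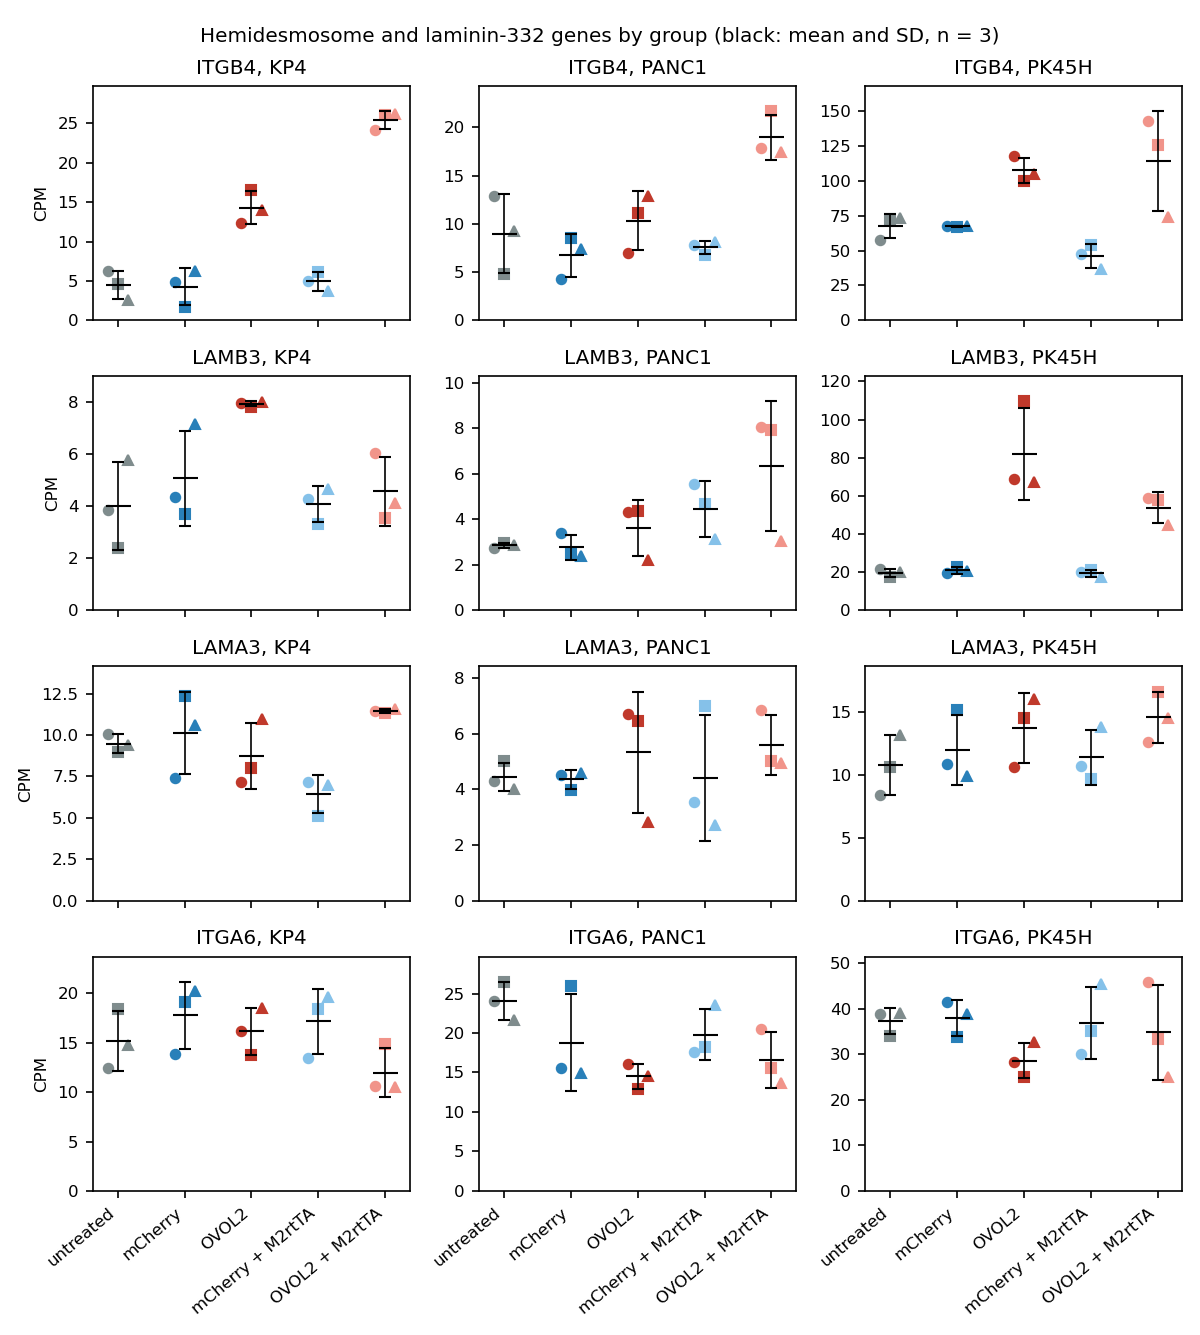
CPM of ITGB4, LAMB3, LAMA3 and ITGA6 (rows) in KP4, PANC1 and PK45H (columns) for the 5 groups of each line; points are libraries and black marks the mean and SD of 3. ITGB4 is higher with OVOL2 than with mCherry in all 3 lines when M2rtTA is present, LAMB3 is higher in PK45H in both arms, and ITGA6 groups overlap.

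Promoter sequences were looked up for the 4 members with the smallest p over lines with M2rtTA. The RefSeq promoter table used here (GRCh38.p14) had an entry for ITGA5 and ITGB5 and none for ITGB4 and ITGA3. LAMA3 and LAMB3, chains of laminin-332, were added after their values had been seen. The 250 bases before the transcription start are printed 5′ to 3′ on the strand of the gene. The sequences were searched on both strands for CACCTG, an E-box bound by repressors of the ZEB and SNAI families (CAGGTG on the other strand), and for CCGTTA, the core of the motif of OVO-type zinc fingers (TAACGG on the other strand), and matches are in capitals. The LAMA3 window (chr18:23872770-23873019, plus strand) lies inside the gene, before the internal start of the single entry in the table and not before the first start of the gene, and holds CACCTG 73 bases before that start. The LAMB3 window (chr1:209652426-209652675, minus strand) holds CAGGTG 218 bases before its start. The bases after that start were not found in GENCODE transcripts of LAMB3. Those after its other starts were found, and the windows before them hold neither motif. The ITGA5 window (chr12:54419267-54419516, minus strand) and the most upstream ITGB5 window (chr3:124901419-124901668, minus strand) hold neither. As no CCGTTA was found in these windows, the motifs overlap nowhere in them. ITGA5 and ITGB5, which fell over lines with M2rtTA, are shown by the rule of the smallest p. LAMA3 and LAMB3, which rose there, were picked by hand. The printed windows are therefore no test of a link between a motif and the direction of change.
LAMA3: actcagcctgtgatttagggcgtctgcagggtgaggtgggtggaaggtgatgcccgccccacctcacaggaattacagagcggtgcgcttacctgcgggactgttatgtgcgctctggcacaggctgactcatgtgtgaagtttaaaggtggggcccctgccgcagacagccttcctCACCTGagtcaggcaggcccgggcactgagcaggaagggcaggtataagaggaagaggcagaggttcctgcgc
LAMB3: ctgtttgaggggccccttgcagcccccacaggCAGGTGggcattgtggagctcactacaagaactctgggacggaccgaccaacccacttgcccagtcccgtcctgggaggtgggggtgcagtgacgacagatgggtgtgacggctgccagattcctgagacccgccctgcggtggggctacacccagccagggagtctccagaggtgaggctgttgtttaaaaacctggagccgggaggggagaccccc
ITGA5: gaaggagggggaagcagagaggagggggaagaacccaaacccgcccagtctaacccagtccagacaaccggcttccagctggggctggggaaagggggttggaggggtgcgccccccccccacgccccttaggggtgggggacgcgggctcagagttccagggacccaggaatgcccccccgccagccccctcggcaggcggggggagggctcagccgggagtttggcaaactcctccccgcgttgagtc
ITGB5: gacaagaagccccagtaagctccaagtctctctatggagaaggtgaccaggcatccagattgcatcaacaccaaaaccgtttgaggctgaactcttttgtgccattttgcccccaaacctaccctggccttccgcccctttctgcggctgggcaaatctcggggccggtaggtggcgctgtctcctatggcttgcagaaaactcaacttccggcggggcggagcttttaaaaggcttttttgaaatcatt

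Of 35116 promoter windows of this length in the table, 17.5% hold CACCTG and 2.45% hold CCGTTA. In all, 23 members were matched, with 30 windows, of which 7 (23.3%) hold CACCTG and 3 (10.0%) hold CCGTTA. The members with a CACCTG were ITGA11, ITGA6, ITGB5 (in another of its windows), ITGB6, LAMA3, LAMA5 and LAMB3 (in the printed 1 of its windows), and those with a CCGTTA were ITGA1, ITGA4 and ITGA6. For the windows of ITGA6, ITGA11, ITGB5 and LAMB3 that hold CACCTG, the bases after the start were not found in GENCODE transcripts. The CCGTTA of ITGA6 lies in that same ITGA6 window. A match describes these letters in this window and no more.

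Among the other laminin receptors, ITGA3 (chr17:50056110-50090481) went in different directions in different lines. In PANC1 it fell from 157, 147 and 159 CPM with mCherry to 82.0, 83.3 and 77.2 with OVOL2 (log2 fold change −0.92, SE 0.11, edgeR adjusted p = 0.000319), and from 187, 183 and 205 to 79.6, 68.4 and 77.8 with M2rtTA (log2 fold change −1.31, SE 0.12, edgeR adjusted p = 5.44e-06). The PANC1 groups were far apart in both arms. In PK45H with M2rtTA it rose from 98.3, 97.9 and 107 to 135, 126 and 144 CPM (log2 fold change 0.43, SE 0.12, edgeR adjusted p = 0.0289), and the KP4 groups, at 57.9, 65.5 and 55.6 against 55.7, 57.1 and 58.5, overlapped. Without M2rtTA the levels were 74.4, 76.8 and 67.1 against 62.1, 65.5 and 64.6 CPM in KP4 and 99.8, 122 and 128 against 115, 118 and 128 in PK45H, with changes of −0.18 and 0.02 that did not pass. A difference between lines passed in both arms (edgeR adjusted p = 0.000414 without and 4.63e-09 with M2rtTA). With M2rtTA, 2 of 23 members passed this test, ITGA3 and LAMC1, against 7.56% of all genes. The means over lines, −0.34 without and −0.32 with M2rtTA, both passed (edgeR adjusted p = 0.000128 and 0.000144). The rise in PK45H was lost in 5 of the 6 refits that left out 1 library (adjusted p up to 0.1005), and the falls in PANC1 were kept in all 6 of each arm.

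ITGA7, the alpha chain of the laminin receptor α7β1 of muscle, had few counts: 13, 15 and 13 in KP4 OVOL2 + M2rtTA libraries and 2, 1 and 0 in their controls. It passed there (edgeR adjusted p = 0.0207); the controls were at or below 3 counts, so no fold is given, and the call was lost in 3 of 6 refits that left out 1 library. Untreated HPAFII had 19, 2 and 18 counts of it.

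Among the collagen-binding chains, ITGA2 (chr5:52989352-53094779) rose in KP4 from 14.7, 18.9 and 18.0 to 76.9, 36.4 and 43.9 CPM (log2 fold change 1.61, SE 0.29, edgeR adjusted p = 0.00483), and with M2rtTA from 19.5, 19.7 and 16.7 to 33.6, 47.5 and 47.0 (log2 fold change 1.20, SE 0.29, edgeR adjusted p = 0.0091). The KP4 groups did not overlap in either arm. In PK45H without M2rtTA its libraries were spread widely, at 38.8, 19.8 and 13.1 with mCherry and 29.3, 60.7 and 102 with OVOL2, and overlapped (log2 fold change 1.38, SE 0.40, edgeR adjusted p = 0.0481); this call was lost in 4 of 6 refits that left out 1 library. With M2rtTA the PK45H levels were 23.2, 24.1 and 19.5 against 23.9, 22.0 and 17.1 CPM, and the change of −0.08 did not pass. In PANC1 the levels were 43.1, 39.6 and 44.7 against 47.9, 66.5 and 58.9 without and 32.3, 33.4 and 30.8 against 34.7, 31.5 and 30.3 with M2rtTA, and neither change passed (edgeR adjusted p = 0.124 and 0.922), although the groups without M2rtTA were apart. Over lines ITGA2 rose by 1.17 (SE 0.18, edgeR adjusted p = 1.15e-05) without M2rtTA, while with it the change was 0.38 (SE 0.18, edgeR adjusted p = 0.11). A difference in response between lines did not pass (edgeR adjusted p = 0.266 without and 0.114 with M2rtTA), although with M2rtTA it passed when only the groups compared were fitted. The difference between the arms, −0.79 (SE 0.26), did not pass (edgeR adjusted p = 0.0538). ITGA1, ITGA10 and ITGA11, whose levels ran from 0.459 to 14.8 CPM over all libraries, did not pass in any comparison.

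Among the fibronectin and vitronectin receptors, ITGA5 fell most. In KP4 with M2rtTA it was at 26.7, 26.3 and 24.3 CPM with mCherry and at 14.3, 11.3 and 12.1 with OVOL2 (log2 fold change −1.03, SE 0.14, edgeR adjusted p = 0.000208). In PANC1 it fell from 45.2, 49.5 and 47.0 to 9.52, 13.6 and 15.8 CPM (log2 fold change −1.82, SE 0.20, edgeR adjusted p = 3.49e-05), and in PK45H from 21.9, 24.3 and 25.3 to 5.27, 11.1 and 9.96 (log2 fold change −1.44, SE 0.28, edgeR adjusted p = 0.00324). The groups did not overlap in any of the 3 lines. Without M2rtTA the levels were 30.987, 23.7 and 29.039 against 25.7, 27.4 and 22.4 CPM in KP4, 35.2, 39.4 and 35.7 against 26.1, 26.3 and 22.4 in PANC1, and 18.9, 11.3 and 10.4 against 9.69, 9.27 and 7.07 in PK45H. The PANC1 and PK45H groups were apart and the KP4 groups overlapped, and no line passed on its own (edgeR adjusted p = 0.642, 0.123 and 0.172).

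Over lines ITGA5 fell by 0.44 on the log2 scale without M2rtTA (SE 0.12, edgeR adjusted p = 0.00949) and by 1.43 with it (SE 0.12, edgeR adjusted p = 2.21e-11). The test of the difference between the arms gave −0.996 (SE 0.17, edgeR adjusted p = 0.000233). The call without M2rtTA was lost when PK45H mCherry replicate 1, the highest of its group, was left out (adjusted p = 0.0540). In all, 2 of 23 members passed the test of a difference between the arms, ITGA5 and ITGAV, against 7.72% of all genes. The controls of the 2 arms also had different mean levels: in KP4, PANC1 and PK45H, mCherry + M2rtTA libraries were at 25.8 ± 1.30, 47.2 ± 2.15 and 23.8 ± 1.75 CPM, and mCherry libraries at 27.9 ± 3.79, 36.8 ± 2.32 and 13.5 ± 4.71. Over lines the 2 sets of controls did not differ past the threshold (log2 fold change 0.35, SE 0.12, edgeR adjusted p = 0.354, unadjusted p = 0.00567).

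ITGB5 fell in KP4 with M2rtTA from 27.2, 34.3 and 28.2 to 18.3, 13.9 and 11.5 CPM (log2 fold change −1.02, SE 0.21, edgeR adjusted p = 0.00298) and in PANC1 from 115, 97.8 and 102 to 37.1, 47.3 and 64.0 (log2 fold change −1.05, SE 0.20, edgeR adjusted p = 0.00322). Both pairs of groups were apart. In PK45H the levels were 51.8, 40.6 and 54.8 against 40.9, 44.9 and 38.6 CPM, overlapping, and the change of −0.24 did not pass. Over lines ITGB5 fell in both arms (−0.36, edgeR adjusted p = 0.0186, without and −0.77, edgeR adjusted p = 9.4e-07, with M2rtTA). Without M2rtTA its groups were at 32.0, 36.6 and 46.3 against 33.2, 27.1 and 23.1 CPM in KP4, 80.9, 78.7 and 83.9 against 51.4, 61.2 and 75.4 in PANC1, and 62.2, 50.1 and 67.6 against 49.4, 49.0 and 49.9 in PK45H. The PANC1 and PK45H groups were apart and the KP4 groups overlapped. The call without M2rtTA was lost when KP4 mCherry replicate 3 was left out (adjusted p = 0.0593).

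ITGAV (chr2:186590056-186680901), the alpha chain of the αv integrins, was at 16.8, 8.95 and 11.5 CPM with mCherry and 6.72, 8.96 and 7.19 with OVOL2 in KP4 with M2rtTA, 29.6, 23.9 and 23.9 against 15.9, 19.1 and 19.992 in PANC1, and 10.8, 17.6 and 16.7 against 11.7, 16.1 and 9.72 in PK45H. Of these the PANC1 groups alone were apart. KP4 passed (log2 fold change −0.70, SE 0.24, edgeR adjusted p = 0.0485), a call lost in 4 of 6 refits that left out 1 library, and in DESeq2. Over lines ITGAV fell with M2rtTA (log2 fold change −0.47, SE 0.18, edgeR adjusted p = 0.0362), a call that was lost in 9 of 18 refits that left out 1 library. Without M2rtTA the change was 0.32 (SE 0.17) and did not pass. Its levels were then 13.6, 17.7 and 17.1 against 16.4, 12.8 and 16.2 CPM in KP4 and 17.7, 10.9 and 15.9 against 19.6, 17.5 and 19.3 in PK45H. In PANC1, with mCherry libraries at 34.7, 26.7 and 26.1 CPM, 1 OVOL2 library stood apart at 86.3 CPM, against 25.5 and 28.2 in its mates. The difference between the arms (−0.80, edgeR adjusted p = 0.0401) became −0.53 without that library (adjusted p = 0.0701) and was lost in 19 of 36 such refits.

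ITGB1, the common beta chain of most of these receptors, did not pass over lines, with changes of −0.21 without and −0.10 with M2rtTA (SE 0.10 and 0.10). It passed in 1 comparison within a line: in PK45H without M2rtTA it fell from 321, 286 and 336 to 178, 192 and 191 CPM, with no overlap (log2 fold change −0.78, SE 0.14, edgeR adjusted p = 0.00311). With M2rtTA the PK45H levels were 303, 247 and 264 against 209, 275 and 226 CPM and overlapped. A difference between lines in this effect did not pass (edgeR adjusted p = 0.0552). ITGB8, the beta chain of αvβ8, which activates TGF-β, had values of −0.41 (SE 0.29) without and −0.18 (SE 0.29) with M2rtTA over lines and did not pass in any comparison.

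**Figure D4:**
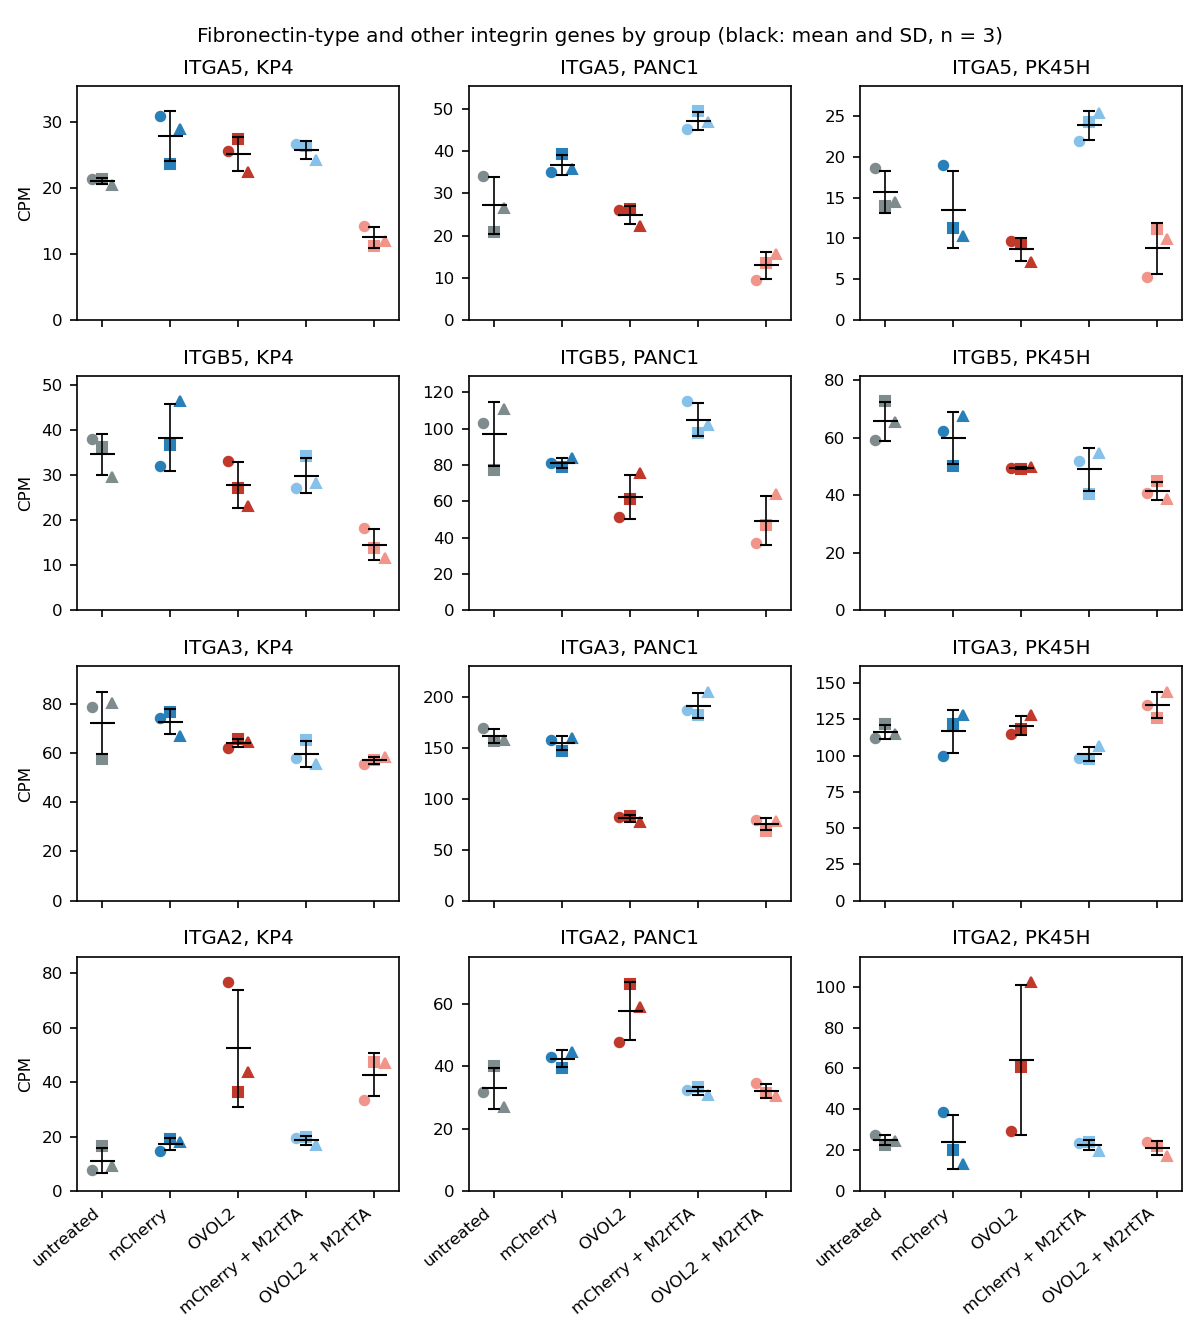
CPM of ITGA5, ITGB5, ITGA3 and ITGA2 (rows) in KP4, PANC1 and PK45H (columns) for the 5 groups of each line; points are libraries and black marks the mean and SD of 3. ITGA5 is lower with OVOL2 than with mCherry in all 3 lines when M2rtTA is present, ITGA3 is lower in PANC1 in both arms, and ITGA2 is higher in KP4 in both.

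ITGAE, the alpha chain of αEβ7, which binds E-cadherin and is best known from lymphocytes of epithelia, had counts in every library. Over lines without M2rtTA it fell (log2 fold change −0.70, SE 0.24, edgeR adjusted p = 0.0415), but single libraries stood high: PK45H mCherry was at 25.1, 90.9 and 35.0 CPM and its OVOL2 group at 20.3, 21.4 and 28.3. The other groups without M2rtTA were at 25.5, 35.2 and 18.2 with mCherry and 17.0, 21.7 and 13.2 with OVOL2 in KP4, and 14.9, 18.5 and 17.5 against 14.5, 11.5 and 11.7 in PANC1. In PANC1 with M2rtTA 1 mCherry library again stood high, at 60.8, 21.7 and 20.2 against 18.6, 13.8 and 14.8 CPM, where the call (log2 fold change −1.09, SE 0.34, edgeR adjusted p = 0.0456) became −0.37 without mCherry + M2rtTA replicate 1 and was lost. In KP4 with M2rtTA it was an OVOL2 library that stood high, with groups at 23.1, 21.5 and 19.8 against 51.5, 20.3 and 20.5 CPM. The call over lines was lost in 11 of 18 refits that left out 1 library. ITGB7, the partner chain of αEβ7, had at most 5 counts in any of the 45 libraries of the 3 transduced lines.

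HPAFII had the highest counts of the leukocyte-type beta chains, with 19, 1 and 42 counts of ITGB7 and 38, 6 and 34 of ITGB2, the common beta chain of leukocyte integrins, while PATU8988S had 1, 4 and 0 of ITGB7 and 0, 0 and 1 of ITGB2. HPAFII replicate 2 had few of either. ITGB2 did not pass between the untreated lines (edgeR adjusted p = 0.652), and ITGB7 was not tested there. The leukocyte markers, 6 in all, summed to 16.4 to 32.4 CPM in HPAFII and 11.2 to 16.2 in PATU8988S, against 0.642 to 12.5 in the other lines. Most of that was LYZ, at 23.0, 12.5 and 29.4 CPM in HPAFII, and PTPRC, the defining marker, had 1, 2 and 2 counts there. ITGB2-AS1, an antisense gene at ITGB2, had 37, 17 and 45 counts in HPAFII, and since the strand of counting is not given in the sources used here, reads of the 2 genes may not be told apart.

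Over lines, the calls among the remaining laminin chains were falls, in LAMB1, LAMB2 and LAMC1. LAMB1 (chr7:107923799-108003161), a beta chain of the classical laminins, fell over lines without M2rtTA (log2 fold change −0.47, SE 0.17, edgeR adjusted p = 0.0473) and with it (log2 fold change −0.56, SE 0.17, edgeR adjusted p = 0.00875), while no line passed alone. Its levels with M2rtTA were 42.9, 25.6 and 21.8 CPM with mCherry and 21.0, 27.9 and 17.5 with OVOL2 in KP4, 72.8, 72.8 and 97.2 against 28.1, 72.5 and 27.5 in PANC1, and 147, 159.6 and 180.0 against 160.2, 120.0 and 95.5 in PK45H. PANC1 OVOL2 + M2rtTA replicate 2 stood at the level of its controls, and its mates were far below. Without M2rtTA the levels were 52.9, 31.9 and 27.7 against 25.8, 24.4 and 23.8 CPM in KP4, 53.2, 63.7 and 65.3 against 34.1, 34.9 and 40.5 in PANC1, and 129.8, 161 and 178 against 132, 146 and 157 in PK45H. The KP4 and PANC1 groups were apart and the PK45H groups overlapped. The call without M2rtTA was lost in 13 of 18 refits that left out 1 library.

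LAMB2, whose product replaces that of LAMB1 in many basement membranes, fell without M2rtTA (log2 fold change −0.70, SE 0.15, edgeR adjusted p = 0.000844) and did not pass with it (−0.07, SE 0.14). Without M2rtTA its groups were at 5.81, 4.94 and 5.99 CPM with mCherry and 3.98, 4.95 and 3.92 with OVOL2 in KP4, 8.34, 8.63 and 7.55 against 4.30, 3.00 and 2.82 in PANC1, and 10.3, 9.32 and 10.1 against 5.20, 7.92 and 8.31 in PK45H. The PANC1 and PK45H groups were apart, and PANC1 passed alone (log2 fold change −1.27, SE 0.28, edgeR adjusted p = 0.0181), a call lost in 4 of 6 refits that left out 1 library. With M2rtTA the levels were 5.39, 3.32 and 6.61 against 7.56, 4.90 and 7.44 CPM in KP4, 8.91, 5.82 and 8.53 against 4.39, 6.46 and 6.59 in PANC1, and 13.5, 11.9 and 16.6 against 13.0, 12.7 and 10.4 in PK45H. The difference between the arms did not pass (0.62, edgeR adjusted p = 0.0575).

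LAMC1 (chr1:183023420-183145592), the gamma chain of most laminins, fell over lines with M2rtTA (log2 fold change −0.34, SE 0.08, edgeR adjusted p = 0.00167). It passed within KP4, where it fell from 76.3, 76.2 and 64.6 to 48.0, 45.1 and 37.2 CPM (log2 fold change −0.73, SE 0.17, edgeR adjusted p = 0.00614), with groups apart. In PANC1 it was at 72.1, 74.9 and 59.5 against 51.8, 53.1 and 55.7 CPM (−0.33) and in PK45H at 57.2, 56.0 and 60.2 against 69.5, 51.3 and 56.4 (0.04), and neither passed. A difference between lines passed (edgeR adjusted p = 0.0424), but the call was lost with a replicate block, with no filter, when only the groups compared were fitted (adjusted p up to 0.126), and in 14 of 18 refits that left out 1 library. In PANC1 with M2rtTA, LAMA5 fell from 43.9, 33.2 and 50.6 to 16.4, 29.9 and 29.6 CPM (log2 fold change −0.71, SE 0.22, edgeR adjusted p = 0.0431). LAMA4 fell there from 10.0, 13.4 and 10.4 to 6.59, 5.03 and 5.88 (log2 fold change −0.93, SE 0.28, edgeR adjusted p = 0.0387). The LAMA4 groups did not overlap, yet its call was lost in all 6 refits that left out 1 library, and that of LAMA5 in 5 of 6. LAMC3 was at 2.91, 3.70 and 6.68 CPM with mCherry and 9.79, 10.1 and 7.37 with OVOL2 in KP4 without M2rtTA, a change of 1.06 (SE 0.31) that did not pass (edgeR adjusted p = 0.0564). LAMA1, with 0.236 to 4.20 CPM in all libraries, did not pass in any comparison.

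**Figure D5:**
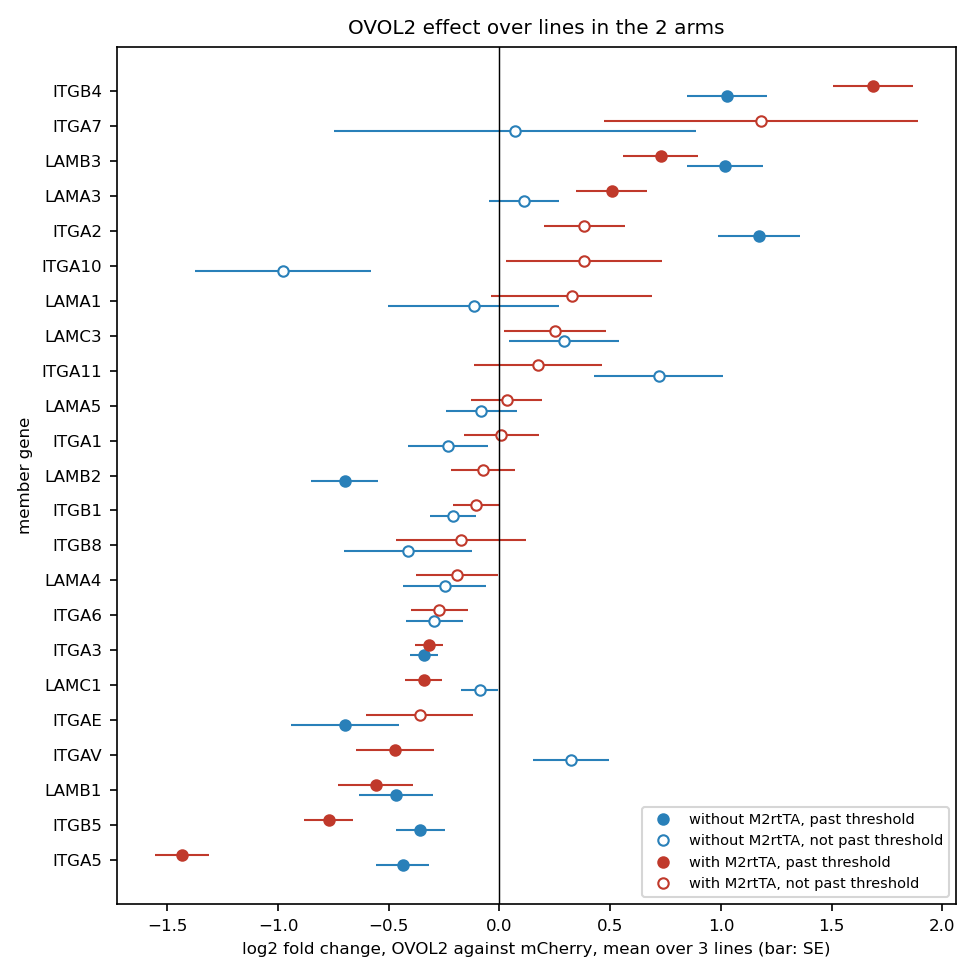
OVOL2 effect as the mean over KP4, PANC1 and PK45H (log2 fold change against mCherry; bars are SE) for the 23 members tested, in the arm without M2rtTA (blue) and with it (red); filled points passed the threshold. ITGA5 lies further left in the arm with M2rtTA (−1.43 against −0.44), ITGB4 is furthest right with M2rtTA (1.69), and ITGA2 is furthest right without it (1.17).

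The 8 members without a test over lines were ITGA4, ITGA8, ITGA9, ITGB2, ITGB3, ITGB6, ITGB7 and LAMA2. None had more than 14 counts, or 2.84 CPM, in any of the 45 libraries of KP4, PANC1 and PK45H, and they did not pass the filter on low counts. ITGB6 had 7, 4 and 3 counts in PK45H OVOL2 + M2rtTA and 1, 0 and 1 in its controls. ITGB3, the beta chain of αvβ3, went the other way, with 0, 0 and 0 counts in PK45H OVOL2 + M2rtTA and 8, 1 and 8 in its controls. Summed over the 3 lines, ITGB3 had 3 counts with OVOL2 and 28 with mCherry in the presence of M2rtTA, and 10 against 31 without it. These differences were not tested, and the PK45H controls held more counts in total. Their totals were 6618011, 5332703 and 6695312, against 5018458, 3776809 and 4224699 in PK45H OVOL2 + M2rtTA.

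The controls were compared with each other in the same fit. Between mCherry and untreated libraries, 0 of 23 members passed in edgeR (background 0.489%), with 0 at an unadjusted p under 0.05 and 0 in DESeq2. Between mCherry + M2rtTA and mCherry libraries, 0 of 23 passed (background 0.0602%), with 1 at an unadjusted p under 0.05, ITGA5, and 0 in DESeq2. The value of ITGB4 was −0.16 (SE 0.19) in the former and −0.07 (SE 0.19) in the latter.

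The partners of these proteins were read from 2 lists. Of 19 basement membrane partners, 15 were tested over lines; without M2rtTA 1 was higher and 1 lower, and with M2rtTA 5 were higher and 1 lower, with medians of −0.13 and 0.24, against 0.00 and 0.03 over all genes. These calls were 13.3% of the list against 18.1% of all genes without M2rtTA, and 40% against 32.9% with it. The 3 with the smallest p with M2rtTA were NID1, CD151 and COL17A1. NID1, nidogen-1, which links laminin to collagen IV, rose over lines by 1.43 (edgeR adjusted p = 8.09e-09). In PANC1 it rose from 18.0, 13.0 and 16.9 to 95.2, 71.1 and 99.5 CPM. In KP4 it rose from 6.51, 4.35 and 6.81 to 21.3, 23.0 and 23.1. Both changes were larger than the mean over lines, and the change in PK45H, not given here, was smaller than that mean. The tetraspanin CD151, a partner of α3β1 and α6β4, fell over lines (−0.50, edgeR adjusted p = 1.13e-08). COL17A1, the transmembrane collagen of hemidesmosomes, rose over lines (1.62, edgeR adjusted p = 0.0166); in PK45H with M2rtTA it was at 2.07, 3.15 and 2.76 CPM with mCherry and 13.4, 9.33 and 10.9 with OVOL2, and in PANC1 with M2rtTA it had at most 7 counts in a library. In untreated HPAFII COL17A1 was at 39.8, 18.8 and 46.1 CPM, and of 12 partners tested in that comparison 3 were higher and 1 lower, 33.3% against 34.8% of all genes.

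Of 30 ligands and adaptors of fibronectin-type integrins, 28 were tested over lines. Without M2rtTA 2 were higher and 5 lower, and with it 3 were higher and 9 lower, with medians of −0.16 and −0.24, against 0.00 and 0.03 over all genes. The calls were 25% of the list against 18.1% of all genes without M2rtTA, and 42.9% against 32.9% with it. The 3 with the smallest p with M2rtTA were PARVA (−0.61, edgeR adjusted p = 1.75e-07), ITGB1BP1 (−0.48, edgeR adjusted p = 2.83e-05) and CCN1 (−0.69, edgeR adjusted p = 0.000137). PARVA, α-parvin, links integrin complexes to actin, ITGB1BP1 binds the tail of the β1 chain, and CCN1 is a secreted ligand of αv integrins. With M2rtTA PARVA was at 71.9, 64.5 and 81.2 CPM with mCherry and 27.7, 27.0 and 30.3 with OVOL2 in PK45H, where the groups were far apart. That change was larger than the mean over lines, and the levels of PARVA in KP4 and PANC1 are not given here. FN1, fibronectin itself, was low at 1.59 to 9.39 CPM in all libraries and did not pass over lines in either arm (−0.24 and −0.32). In the untreated comparison 4 of 27 were higher and 9 lower, 48.1% against 34.8% of all genes.

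Markers of other cells were read beside these genes. The 6 fibroblast markers summed to 8.54 to 66.3 CPM over the libraries; COL1A1 rose over lines with M2rtTA (1.72, edgeR adjusted p = 1.19e-11) and COL3A1 fell (−1.18, edgeR adjusted p = 7.95e-05). With M2rtTA the sums were 44.6 to 55.2 CPM in KP4 OVOL2 and 22.8 to 32.1 in its controls, 48.1 to 66.3 and 28.5 to 38.3 in PANC1, and 28.6 to 34.6 and 11.8 to 14.5 in PK45H. Of this list, LUM and PDGFRB had at most 5 counts in any library. COL1A1, COL1A2, COL3A1 and DCN had counts in every library, DCN at most 26. The 3 endothelial markers summed to 2.91 to 13.7 CPM, with VWF higher over lines with M2rtTA (1.85, edgeR adjusted p = 0.013). None of the leukocyte markers tested passed with OVOL2 over lines; 2 of 6 could be tested there. The part of other cells in the laminin and integrin results was not tested.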

How the data were processed

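PLATE-seq RNA counts were analysed in 51 libraries. The authors deposited 1 table of whole-number counts per gene and library, not normalized. The submitters' processing notes name kallisto 0.44.0 and GRCh38, with no role stated, so the counts may be rounded estimates; strand and annotation are not given in the sources used here. Each column was matched to its sample by name, and groups were taken from the labels. Library totals ran from 1165399 to 7490556 counts, and 3 counts were taken as the floor. No libraries were duplicates.

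Tests used edgeR 4.0.16 (filterByExpr, TMM, quasi-likelihood F test) in R 4.3.3, with Benjamini-Hochberg adjustment over all genes tested and a threshold of 0.05. Fits held the 15 libraries of a line, the 45 libraries of the 3 transduced lines (group means, with contrasts averaged over lines) or the 15 untreated libraries. SE is the log2 fold change divided by the root of F. DESeq2 1.42.0 was an alternative. The scripts were tested on simulated data. CPM used TMM factors over all 51 libraries.

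Members given per library were those with a mean of at least 5 CPM that passed over lines or between untreated lines; other genes were named as the 3 with the smallest p of each list over lines with M2rtTA, and markers. Values per library of members outside that rule (ITGA7, ITGB1, ITGB2, ITGB3, ITGB6 and ITGB7), FN1, and the promoters of LAMA3 and LAMB3 were chosen after their values were seen. The members and lists were chosen with earlier results of these data known.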

Additional observations from a re-analysis of the deposited data

Results flagged for a closer look

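The response to OVOL2 differed between KP4, PANC1 and PK45H, by a test of the difference itself, for 3 members. For ITGA3, which fell in PANC1, the edgeR adjusted p of the difference between lines was 0.000414 without and 4.63e-09 with M2rtTA. For LAMB3, which rose in PK45H, it was 0.036 without M2rtTA, and for LAMC1, which fell in KP4, it was 0.0424 with M2rtTA. The LAMC1 call was lost with a replicate block, with no filter and when only the groups compared were fitted, and the LAMB3 call with the last 2 of these. Between the arms, the OVOL2 effect over lines differed for ITGA5 (−0.996, edgeR adjusted p = 0.000233) and ITGAV (−0.80, edgeR adjusted p = 0.0401), both lower with M2rtTA. The ITGAV call was lost with a replicate block, with no filter and when only the groups compared were fitted.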

How the results depend on the processing

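The alternatives were RLE scaling, no filter on low counts, robust dispersion, a replicate block, DESeq2, a fit to only the groups compared (for the untreated lines, a fit of all libraries), and leaving out each library. Across the 63 single-gene calls of members, 346 of 378 alternative values kept their call, 32 lost it and 0 reversed; of 819 refits without 1 library, 686 kept the call, 133 lost it and 0 reversed. Within lines, some single-gene calls ended under an alternative other than leaving out a library. In KP4 with M2rtTA this was ITGAV (RLE, no filter, block, DESeq2, only the groups compared). In PK45H it was ITGA2 without M2rtTA (robust dispersion, block, only the groups compared) and ITGA3 with it (no filter, only the groups compared). In PANC1 without M2rtTA it was LAMB2 (only the groups compared). In PANC1 with M2rtTA it was ITGAE (block, only the groups compared), LAMA4 (no filter) and LAMA5 (no filter, block, only the groups compared). Counts of members called changed by more than 1.5 times in these cases. In PANC1 without M2rtTA 1 member was called when only the groups compared were fitted (LAMB2 lost). For the difference between lines without M2rtTA it was 1 with no filter and 1 with only the groups compared (LAMB3 lost), and with M2rtTA 1 with no filter (LAMC1 lost, as also with the block, where LAMB3 was gained, and with only the groups compared, where ITGA2 was gained) and 5 in DESeq2 (LAMB3, ITGB5 and LAMA5 gained). For the difference between arms it was 1 with no filter and 1 with the replicate block (ITGAV lost, as also with only the groups compared). More genes enter the adjustment with no filter and fewer libraries estimate the spread with only the groups compared; for the other cases the cause was not tested.

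Without 1 library, the count of members called without M2rtTA ran from 2 to 3 (KP4), 1 to 2 (PANC1) and 2 to 3 (PK45H), and with M2rtTA from 5 to 8, 4 to 6 and 3 to 4 in that order. The 5 came without KP4 OVOL2 + M2rtTA replicate 3, and the 4 without PANC1 OVOL2 + M2rtTA replicate 1 or 3 or mCherry + M2rtTA replicate 1. It ran from 7 to 9 over lines without and 8 to 9 with M2rtTA, from 1 to 3 and 1 to 4 for differences between lines, from 1 to 4 between arms, from 0 to 0 in both control comparisons, and from 11 to 15 between untreated lines.

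The replicate number as a block gave 8 members over lines without M2rtTA (ITGAE lost) and 8 with it (ITGAV lost). The numbers did not pair the samples: over 36 same-numbered pairs the correlation of deviations ran from −0.15 to 0.18 (median −0.00), with 3 over 0.1 and 13 best with their own number. For the untreated lines a block within each line could not be fitted, and a block across lines, chosen after seeing the data, gave 12 (LAMB2 lost). The 8 members of low count were not tested over lines, and the ITGA7 controls lay mostly at or under 3 counts; such limits cover counting error only.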
